A study of Mus musculus with 12 samples.

Results

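The 8 microRNA biogenesis factors Drosha, Dgcr8, Xpo5, Dicer1, Tarbp2, Prkra, Ddx5 and Ddx17 were followed by their gene symbols through 4 tables of RNA sequencing of mouse embryonic stem cells. All 8 of the 18412 genes of each table that carry these symbols were found, in exonic and in intronic reads. The study compared cells without Dicer1 (Dicer1-/-) with the wild-type line TFC, and cells without Dgcr8 (Dgcr8-/-) with the wild-type line V6.5, with 3 libraries in each of the 4 groups and 12 in all. All groups were grown on gelatin-coated plates, in medium with serum and LIF (leukaemia inhibitory factor), and strand-specific libraries were made from polyadenylated RNA. Each genotype is named as a single cell line, so that a difference between lines other than the deleted gene cannot be told apart from the deletion. Nothing in the labels says that the 3 libraries of a line came from separate cultures, so p-values reflect how much the libraries of a line vary, which may be technical. Which part of each gene was deleted is not stated in these sources.

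MicroRNAs are made in steps. In the nucleus the Microprocessor, made of the ribonuclease Drosha and its RNA-binding partner Dgcr8, cuts a hairpin out of a longer primary transcript, with the RNA helicases Ddx5 and Ddx17 as accessory proteins for a subset of hairpins. Exportin-5, the product of Xpo5, carries the hairpin to the cytoplasm, where the ribonuclease Dicer, encoded by Dicer1, cuts off the loop, and Tarbp2 and Prkra (also known as TRBP and PACT) are RNA-binding partners of Dicer. Embryonic stem cells without Dicer or Dgcr8 lose mature microRNAs of the canonical pathway, remain viable and are slow to differentiate. Dgcr8 and Drosha are also known to regulate each other: the Microprocessor cuts hairpins in the Dgcr8 messenger RNA, and Dgcr8 stabilises the Drosha protein.

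The hairpins inside the factors' own genes are shown because the Dgcr8 transcript is itself a known substrate of the Microprocessor. Of the 8 genes, 3 held an annotated microRNA hairpin of RefSeq (GRCm38.p6, the same build as mm10), with 4 hairpins in all, each on its host's strand. Dgcr8 (ENSMUSG00000022718.12, chromosome 16, 18253948 to 18289246, minus strand) held both of its hairpins in exon 2 of the 14 exons of its principal transcript in GENCODE M21. The hairpin of miR-1306 (chr16:18284239-18284317, minus strand, 79 bases) lies in the coding part of that exon. It is printed from 5′ to 3′ with its 2 mature arms in capitals.
miR-1306 hairpin: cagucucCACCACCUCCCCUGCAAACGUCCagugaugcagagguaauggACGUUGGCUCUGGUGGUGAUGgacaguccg
The hairpin of miR-3618 (chr16:18284550-18284637, minus strand) lies upstream, in the untranslated part of the same exon. The mature arms of both hairpins are printed with the seed, bases 2 to 8, in capitals.
mmu-miR-1306-5p: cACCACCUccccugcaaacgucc
mmu-miR-1306-3p: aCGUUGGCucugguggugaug
mmu-miR-3618-5p: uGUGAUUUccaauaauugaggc
mmu-miR-3618-3p: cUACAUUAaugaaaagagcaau
Xpo5 (chromosome 17, 46202782 to 46243598, plus strand) held the miR-693 hairpin in intron 20 (chr17:46231531-46231619). In Ddx5 (chromosome 11, 106780355 to 106789185, minus strand) the miR-3064 hairpin (chr11:106782693-106782759) filled intronic sequence next to exon 12 and shared 1 base with that exon in the principal transcript. The 8 mature arms of these 4 hairpins had 8 different seeds, so no pair of them shared one. MicroRNAs themselves are too short for these libraries and were not measured.

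Whole reads of each library were recovered from the deposited group means, and libraries are called A, B and C within a group, with A the library that correlated least with the other two in exons. The letters are not the replicate numbers of the labels, and the letters B and C of the intronic libraries are uncertain. Libraries held 5869714 to 30876461 exonic and 559057 to 5597604 intronic reads in genes with 1 solution. Mean correlations of a library with the others of its group were 0.769 to 0.888 in exons. All 8 embryonic stem cell markers were read in exons of every group, among them Pou5f1, Nanog and Sox2. Of the 8, 5 could be tested in Dicer exons and 6 in Dgcr8 exons, and 0 were called there. In introns 6 were tested in each pair. There 1 was called higher in the Dgcr8 knockout, Nanog, with 376.5 against 147.7 reads (adjusted p = 0.0493 with limma), against 1.52% of all genes. Dppa5a and Tdgf1 could not be tested in exons. Dppa5a means were 44716 against 18225 in the Dicer pair and 31119 against 15117 in the Dgcr8 pair. Those of Tdgf1 were 30307 against 36206 and 26073 against 12858. Exonic means of Nanog were 12344 against 7144 and of Sox2 16618 against 7854 in the Dgcr8 pair, each higher in every knockout library and not called. Of 11 fibroblast markers, 10 could be tested in Dgcr8 exons and 3 were lower in the Dgcr8 knockout than in V6.5 with limma and adjusted p under 0.05, Col1a1, Acta2 and Tagln, and 0 higher. Without library B or C of either group no gene was called in these exons, so these calls rest on them. Acta2 was also called lower in the introns. In the Dicer pair 9 were tested and 0 were called. The summed fibroblast level was 19666 to 46561 in V6.5 and 17712 to 27188 in the Dgcr8 knockout over 11 genes, and over the 10 with library values 3172 to 5507 in TFC and 6224 to 8909.8 in the Dicer knockout. Fn1 made up most of each sum in the Dgcr8 pair, with overlapping groups and means of 21262 in V6.5 and 12645 in the knockout, not called. It was the gene left out of the Dicer sums. Lum was at 0 in both knockouts, and Col1a2, Col3a1 and Postn were at 0 in the Dicer knockout. Vim, also in these sums, was higher in every knockout library of both pairs and not called, with 7173 against 4079.9 exonic reads in the Dicer pair and 7677 against 2723 in the Dgcr8 pair (adjusted p = 0.231 and 0.0811 with limma), and it made up most of the Dicer sums. Tagln was higher in every Dicer knockout library, with 429.7 against 103.8 (adjusted p = 0.153 with limma). Thy1 was lower in every one, with 25.0 against 187.2 (adjusted p = 0.204 with limma), and was not called. In Dgcr8 exons Col1a2, Col3a1 and Postn were lower in every knockout library and not called. Of all genes tested in exons, groups lay apart for 21.3% in the Dicer pair and 22.5% in the Dgcr8 pair. The part of the fibroblast markers in the differences described here was not tested. In bulk RNA, fewer cells of a type and less RNA per cell cannot be told apart.

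Per kilobase of exon the helicases stood far above the rest. Ddx5 had 12309.6 exonic reads per kb in TFC and 8434 in V6.5, and Ddx17 had 2474 and 1562. In V6.5, where every library was known for both, the Ddx5 libraries lay between 5086 and 10597 and the Ddx17 libraries between 1491 and 1625, with no overlap between them or with the genes below. The core factors of the nuclear and export steps came next and could not be ordered: Drosha, Dgcr8 and Xpo5 had 960.9 ± 146.9, 900.0 ± 341.7 and 895.8 ± 267.2 exonic reads per kb in TFC (SD, n = 3), and their libraries overlapped. In V6.5 they had 544.2 ± 70.7, 598.3 ± 125.9 and 563.7 ± 89.4 (SD, n = 3). The cytoplasmic factors were the lowest. Dicer1 had 328.8 ± 28.2 in TFC and 457.9 ± 58.9 in V6.5, Tarbp2 346.9 ± 212.3 and 332.7 ± 150.3, and Prkra 191.1 ± 109.8 and 195.6 ± 11.2 (SD, n = 3). In TFC Xpo5 stood apart from Tarbp2 below it and Dicer1 from Prkra, while in V6.5 each neighbour from Dgcr8 down to Prkra overlapped the next. TFC and V6.5 come from separately scaled tables, and their values are not compared.

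**Figure D1:**
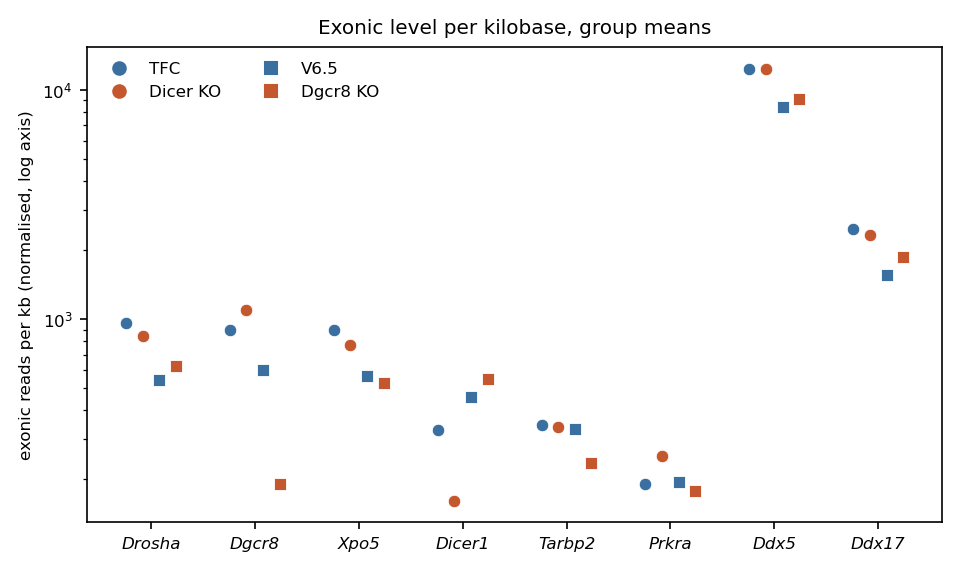
Exonic level of each factor per kilobase of exon, on a log axis, as the authors' group means for TFC and Dicer knockout (circles) and V6.5 and Dgcr8 knockout (squares), wild type in blue and knockout in orange. Ddx5 is highest in every group, and Dicer1 and Dgcr8 each lie lower in their own knockout than in its wild type.

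In intronic reads per kb the order was similar at the top and differed below it. Ddx5 had 878.6 ± 207.3 intronic reads per kb in TFC, Ddx17 252.1 ± 88.1 and Tarbp2 62.4 ± 26.1 (SD, n = 3), each apart from the next in every library. The other 5 lay between 6.12 (Prkra) and 16.3 (Xpo5), and their neighbours overlapped. In V6.5 the same 3 genes led, with 676.8, 121.0 and 37.6, and the other 5 lay between 2.59 (Dicer1) and 8.34 (Dgcr8). Tarbp2 has the shortest introns of the 8, 3535 bases in all, and Drosha the longest, 105226 bases.

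Exonic RNA of each targeted gene was lower in its own knockout in every library. Neither gene passed the test across all genes when its pair was fitted alone, with every library and no term for library A. No other factor passed it in any of the 8 comparisons, from whose exonic fits Ddx5 and Ddx17 were left out. A fit of all 12 libraries, also without a term for library A, called Dicer1 lower in Dicer exons and Dgcr8 lower in Dgcr8 exons. That fit called 343 and 488 of all 12322 genes there. With a term for library A, 1 factor was called in Dicer exons (Dicer1), 1 in Dgcr8 exons (Dgcr8) and 2 in the exonic difference between the knockouts (both). With that term 1606 of 13161, 2158 of 12736 and 335 of 12322 genes were called, in the same order. Library A was picked from these same values. Dicer1 exonic reads were 0.491 of the TFC level in the Dicer knockout, and Dgcr8 exonic reads 0.318 of the V6.5 level in the Dgcr8 knockout. Exonic reads of both genes remained in their knockouts, and a total over all exons says nothing of which part was lost. With limma and a Benjamini-Hochberg adjusted p under 0.05, 0 of the 6 factors that could be tested were called in Dicer knockout exons, where 1.25% of 13161 genes were. Of 8 tested, 0 were called in Dicer knockout introns, against 0.353% of 11625 genes. In the Dgcr8 knockout, 0 of 6 were called in exons and 0 of 8 in introns, against 1.26% of 12736 and 1.52% of 10748 genes. At an unadjusted p under 0.05, limma gave 1 factor in Dicer exons (Dicer1), 0 in Dicer introns, and 1 each in Dgcr8 exons and introns (Dgcr8 in both). Of all genes tested, 14.5%, 10.1%, 16.2% and 14.5% passed at that level in the same order, so these counts are near the background. Limma-voom on the whole reads also called 0 in each of the 4. The median log2 difference of the tested factors was -0.011 in Dicer exons and -0.13 in Dgcr8 exons, beside -0.011 and -0.081 over all genes tested. In introns it was 0.23 and 0.27, beside 0.05 and -0.054. All log2 differences are knockout minus wild type on the log2(value + 1) scale, and a factor that misses the threshold is not shown to be equal in both groups.

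**Figure D2:**
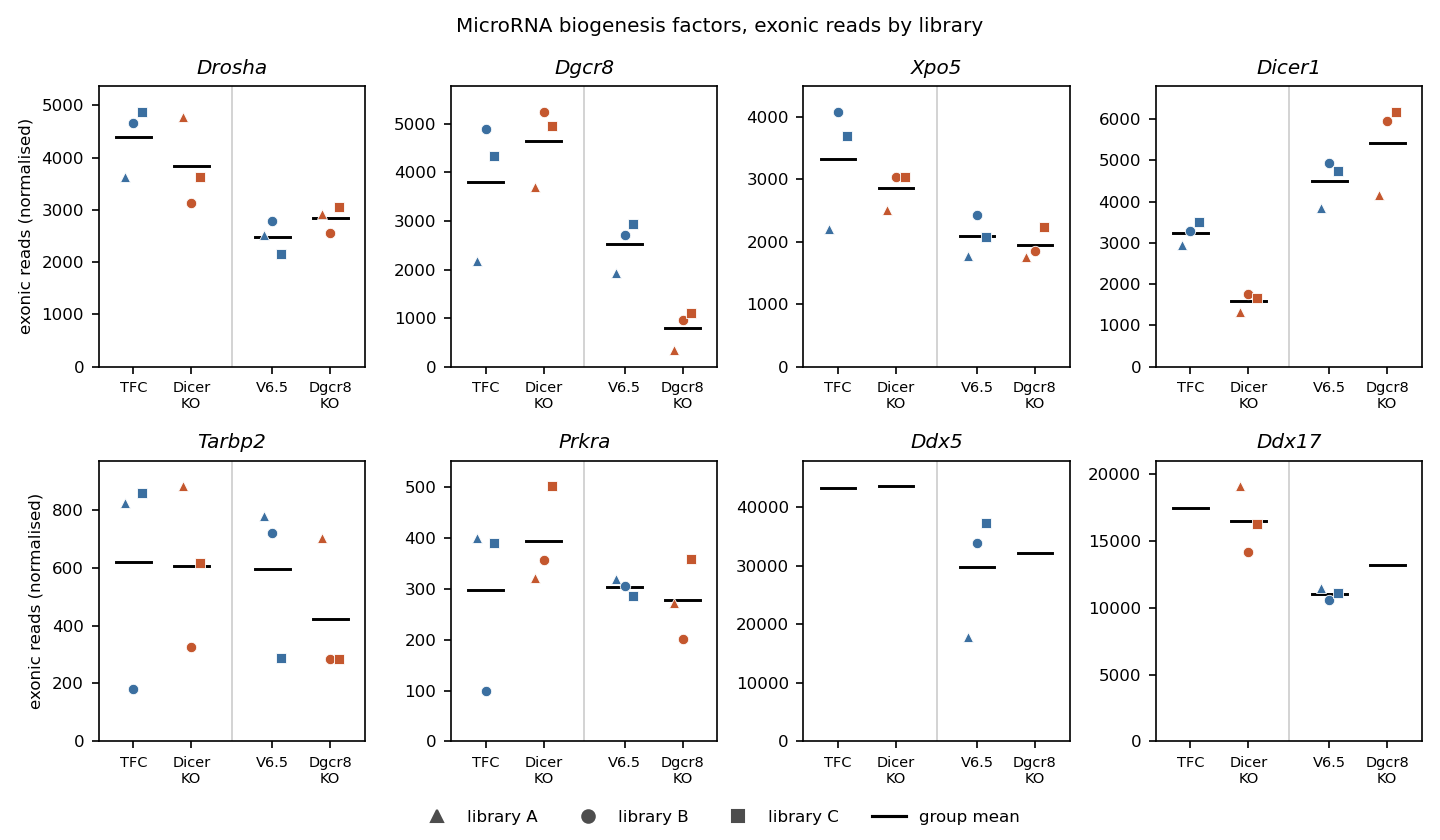
Normalised exonic reads of each factor in every library (triangles A, circles B, squares C; wild type blue, knockout orange) with the group mean as a bar, on linear axes from 0; the Dicer and Dgcr8 pairs were scaled separately. Dicer1 in the Dicer knockout and Dgcr8 in the Dgcr8 knockout lie below every library of their wild type, and where a group of Ddx5 or Ddx17 has no unique whole reads the mean alone is drawn. Groups were apart for 21.3% of all genes in Dicer exons and 22.5% in Dgcr8 exons.

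Dgcr8, the RNA-binding subunit of the Microprocessor, had fewer exonic and more intronic reads in every library of its own knockout than in V6.5, and neither difference was called. Its normalised exonic reads were 342.1, 955.5 and 1114 in Dgcr8 knockout libraries A, B and C, compared with 1929.8, 2707 and 2947 in V6.5. All 3 knockout libraries lay below all 3 wild-type libraries, and A was the lowest of its group in both. Groups were apart, in either direction, for 22.5% of all genes in these exons. The log2 difference was -1.80 (SE 0.47, adjusted p = 0.11 with limma), -2.49 between the A libraries and -1.45 between B and C. Over 15 other settings the adjusted p ran from 0.00128 to 0.397, and Dgcr8 was called in 3 of them: with a term for library A (adjusted p = 0.00128), with all 12 libraries in the fit (0.0392), and with B and C only (0.00855), all 3 lower. Those 3 fits called 2158, 488 and 2024 of all genes. Library A was picked from these same values, so the settings that set it apart are descriptions and not independent tests.

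Intronic reads of Dgcr8 were 389.3, 408.3 and 437.7 in the Dgcr8 knockout, compared with 242.8, 215.1 and 310.6 in V6.5. Here all knockout libraries lay above all wild-type libraries, by 0.70 on the log2 scale (SE 0.30, adjusted p = 0.295 with limma, not called). Of all genes tested in these introns, 19.7% had groups that did not overlap. Intronic reads come mostly from transcripts not yet spliced, so they follow a gene's transcription more closely than exonic reads do. The exonic minus intronic log2 value of Dgcr8, centred on each library's median gene, was -2.91, -1.42 and -1.31 in knockout libraries A, B and C, compared with 0.23, 1.04 and 0.66 in V6.5, apart in every library. How many of all genes had groups apart in this value was not computed. The library values of Dgcr8 rest on the uncertain match of intronic libraries B and C. The difference of -2.52 (SE 0.56) had an unadjusted p of 0.00306 with limma and stood at rank 41 of 10348 genes by p. Its adjusted p was 0.77, and 0% of all genes were called in this comparison. In the Dicer pair 0% of 10976 genes were called in it as well. At an unadjusted p under 0.05, 1 of 6 factors (Dgcr8) and 5.71% of all genes passed in the Dgcr8 pair, and 0 of 6 factors and 3.43% of all genes in the Dicer pair.

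In the Dicer knockout, Dgcr8 exonic reads were 3709, 5254 and 4959 in libraries A, B and C, against 2168, 4904 and 4336 in TFC. The groups overlapped, and the log2 difference was 0.36 (SE 0.34, adjusted p = 0.692 with limma). TFC library A was the lowest of these 6 values, and without it the difference was -0.0071. Intronic Dgcr8 reads averaged 531.0 against 456.7 and also overlapped (log2 difference 0.28, SE 0.34).

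Drosha, the ribonuclease of the Microprocessor (ENSMUSG00000022191.16, chromosome 15, 12824815 to 12935291, plus strand), showed no call in either knockout. Its exonic reads were 2919, 2563 and 3051 in the Dgcr8 knockout, compared with 2526, 2789.7 and 2147 in V6.5, overlapping, with a log2 difference of 0.20 (SE 0.24, adjusted p = 0.781 with limma). Its intronic reads, 471.2, 586.0 and 513.5 against 456.1, 397.6 and 449.1, lay higher in all 3 knockout libraries, by 0.27 (SE 0.28, adjusted p = 0.722). Groups were apart, in either direction, for 19.7% of all genes in these introns. In the Dicer knockout the exonic reads were 4773, 3132 and 3621 and in TFC 3626, 4668 and 4881. There the library sets disagreed: the log2 difference was 0.40 between the A libraries, -0.50 between B and C, and -0.20 over all (SE 0.25, adjusted p = 0.76). Its intronic reads overlapped there, with 969.0 in the Dicer knockout against 870.7 in TFC (log2 difference 0.19, SE 0.27).

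The helicases Ddx5 and Ddx17 (Ddx17 on chromosome 15, 79527736 to 79546741, minus strand) are so abundant that several sets of whole reads gave the same exonic mean in some groups. For those groups only the authors' means can be given. Ddx5 exonic means were 43557 in the Dicer knockout and 43329.8 in TFC, a ratio of 1.01, and 32165 in the Dgcr8 knockout and 29688 in V6.5, a ratio of 1.08. Ddx17 exonic means were 16509 and 17491 in the Dicer pair, a ratio of 0.944, and 13200.4 and 11048 in the Dgcr8 pair, a ratio of 1.19. Of the 20 combinations of whole reads possible for Ddx5 in the Dicer pair and the 7 in the Dgcr8 pair, and of the 2 for Ddx17 in each, 0 were called with limma, with adjusted p between 0.669 and 0.999.

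Introns of the helicases had unique whole reads. Ddx5 intronic reads were 4126, 6627 and 7775 in Dicer knockout libraries A, B and C, compared with 2799.6, 4350.4 and 4392 in TFC. The knockout mean was 1.61 times that of TFC and of the knockout libraries only A lay within the wild-type range (log2 difference 0.66, SE 0.32, adjusted p = 0.502 with limma, 0.157 to 0.834 over 15 other settings). In the Dgcr8 pair Ddx5 intronic reads were 2122, 3934 and 4704 against 1821, 3089.8 and 3980.4, with a log2 difference of 0.27 (SE 0.41). Ddx17 intronic reads averaged 2397 against 2958 in the Dicer pair and 1660.2 against 1419.6 in the Dgcr8 pair, overlapping in both (adjusted p = 0.766 and 0.867 with limma).

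**Figure D3:**
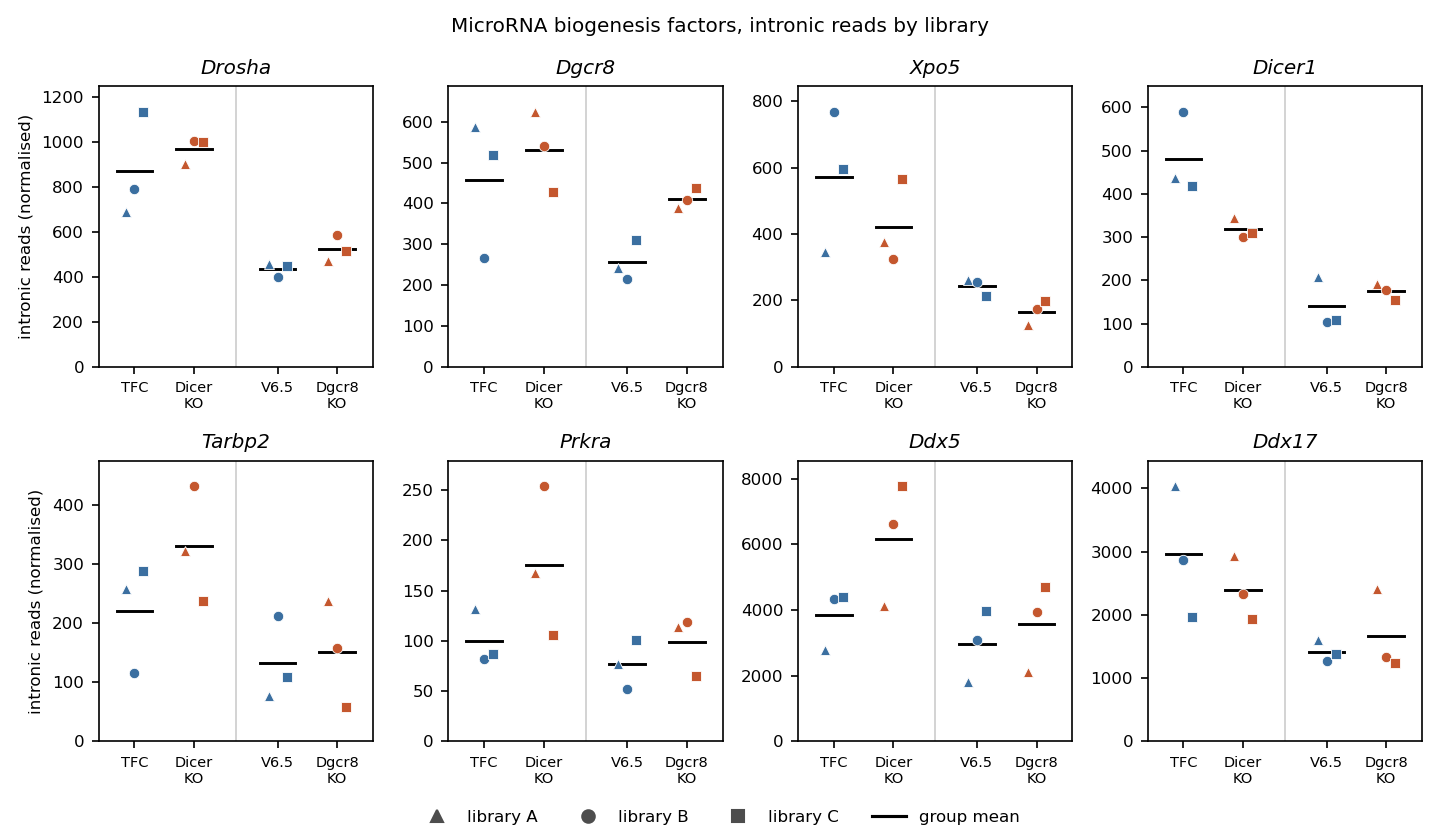
Normalised intronic reads of each factor in every library, drawn as in the plot of exonic reads. Dgcr8 and Drosha lie higher and Xpo5 lower in every Dgcr8 knockout library than in V6.5, and Dicer1 lies lower in every Dicer knockout library than in TFC. Groups were apart for 19.7% of all genes in Dgcr8 introns and 17.3% in Dicer introns.

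Xpo5, the export receptor of precursor hairpins, was not called in either knockout. Its exonic reads were 2502, 3041 and 3038 in the Dicer knockout, compared with 2201, 4082 and 3685 in TFC (log2 difference -0.17, SE 0.28, adjusted p = 0.824 with limma), and 1759, 1856 and 2232 in the Dgcr8 knockout, compared with 1769.8, 2432 and 2070.5 in V6.5 (-0.10, SE 0.26, adjusted p = 0.92). Both pairs overlapped. Its intronic reads were 125.5, 175.5 and 198.6 in the Dgcr8 knockout, below each of the V6.5 values of 260.6, 256.8 and 213.3 (log2 difference -0.57, SE 0.34, adjusted p = 0.478). In these introns groups were apart for 19.7% of all genes. The exonic minus intronic value of Xpo5 was 1.08, 0.75 and 0.83 in the Dgcr8 knockout, above each V6.5 value of 0.0021, 0.63 and 0.69, with a difference of 0.44 (SE 0.38, adjusted p = 0.925 with limma). These library values rest on the uncertain match of intronic libraries B and C. The share of all genes with groups apart in this value was not computed. In the Dicer pair the intronic groups overlapped, with 422.8 against 570.9 (log2 difference -0.40, SE 0.35).

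Dicer1 (ENSMUSG00000041415.10, chromosome 12, 104687742 to 104751952, minus strand) was lower in both exons and introns of its knockout. Its exonic reads were 1334, 1763 and 1675 in Dicer knockout libraries A, B and C, compared with 2944, 3278 and 3496 in TFC. The groups were apart and their spread was small: the log2 difference was -1.03 (SE 0.23, adjusted p = 0.0761 with limma), -1.14 between the A libraries and -0.98 between B and C. Over 15 other settings the adjusted p ran from 0.00203 to 0.374. Dicer1 was called, as lower, in 3 of them: with a term for library A (adjusted p = 0.00203), with all 12 libraries (0.036), and without TFC library A (0.043). Those 3 fits called 1606, 343 and 483 of all genes. As library A was picked from these same values, the settings that set it apart are descriptions and not independent tests. Groups that did not overlap were found for 21.3% of all genes in these exons and for 17.3% in the introns.

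Dicer1 intronic reads were 344.2, 299.2 and 309.8 in the Dicer knockout, compared with 436.9, 590.5 and 417.9 in TFC, again lower in every knockout library, with a log2 difference of -0.58 (SE 0.31, adjusted p = 0.535 with limma). The exonic minus intronic difference was -0.45 (SE 0.43, adjusted p = 0.943), and the libraries of both groups overlapped in it. In the Dgcr8 knockout, where Dicer1 was not the targeted gene, exonic Dicer1 reads were 4156, 5948 and 6185, against 3852, 4948 and 4732 in V6.5. The groups overlapped, with a log2 difference of 0.25 (SE 0.27, adjusted p = 0.738), and intronic reads averaged 174.8 against 139.7 (log2 difference 0.39, SE 0.39).

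Tarbp2 and Prkra, the Dicer partners, had the largest standard errors of the 6 factors tested in Dicer exons, and neither was called in either knockout. Tarbp2 exonic reads (chromosome 15, 102518192 to 102523676, plus strand) were 881.1, 324.9 and 616.2 in the Dicer knockout, compared with 823.3, 182.6 and 857.2 in TFC, and 701.4, 284.3 and 283.8 in the Dgcr8 knockout, compared with 779.5, 720.3 and 286.9 in V6.5. Within TFC alone the libraries spanned more than the difference between the lines (log2 difference 0.15, SE 0.65, in the Dicer pair and -0.50, SE 0.54, in the Dgcr8 pair). Without TFC library B the Dicer difference was -0.58. Prkra (chromosome 2, 76629898 to 76648015, minus strand) had 321.4, 356.7 and 502.0 exonic reads in the Dicer knockout, compared with 399.6, 100.05 and 391.2 in TFC. The log2 difference of 0.62 (SE 0.62, adjusted p = 0.708 with limma) rested on TFC library B, and was -0.034 without it. In the Dgcr8 pair Prkra had 278.2 against 304.0 exonic reads (-0.17, SE 0.39). Intronic reads of both genes overlapped in both pairs, with adjusted p between 0.611 (Tarbp2, Dicer pair) and 0.948 (Tarbp2, Dgcr8 pair).

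**Figure D4:**
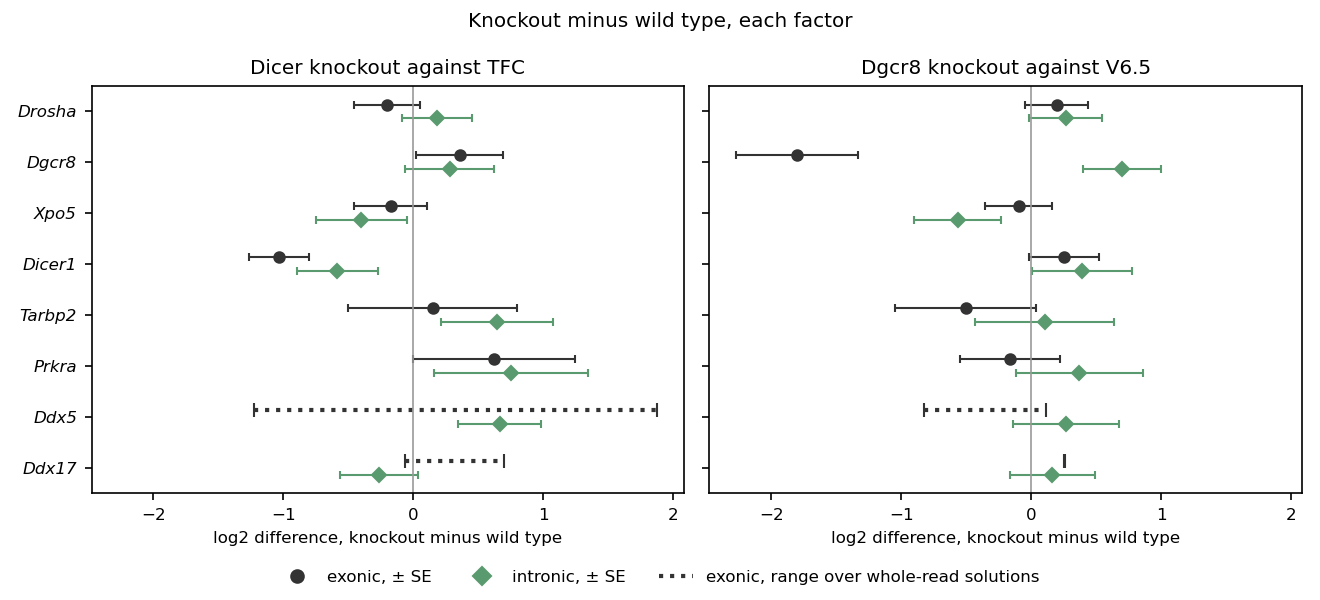
Log2 difference of each factor, knockout minus wild type, in exons (black circles) and introns (green diamonds) with its standard error, for the Dicer pair (left) and the Dgcr8 pair (right). Dotted lines give the range over the possible whole reads of Ddx5 and Ddx17, and Dgcr8 in its own knockout is the factor with exons below and introns above 0 by more than the standard error of each.

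Whether a factor responded differently to the loss of Dicer and of Dgcr8 was tested as the difference between both effects over the 12 libraries. In exons 0 of 6 factors were called with limma, against 0.154% of 12322 genes, and in introns 0 of 8, against 0.00957% of 10453 genes. At an unadjusted p under 0.05 there were 2 of 6 factors in exons, Dicer1 and Dgcr8, against 7.03% of all genes, and 0 of 8 in introns, against 7.13%. Limma-voom called 0 in both. For Dicer1 the Dicer effect minus the Dgcr8 effect was -1.29 (SE 0.32, adjusted p = 0.206), and for Dgcr8 2.15 (SE 0.61, adjusted p = 0.286). Each was called, with the same direction, in 2 of 20 other settings: a term for library A and libraries B and C only, with adjusted p between 0.00199 and 0.00607. Those 2 fits called 335 and 633 of all 12322 genes, and both set apart a library picked from these same values. Over all 20 settings the adjusted p ran from 0.00313 to 0.538 for Dicer1 and from 0.00199 to 0.668 for Dgcr8. The other 4 factors tested in exons, Drosha, Xpo5, Tarbp2 and Prkra, had adjusted p between 0.964 and 0.999, and in introns all 8 had adjusted p between 0.708 and 0.976.

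Library A differed from B and C for several factors in the same way in every group. Exonic reads of Dgcr8, Xpo5 and Dicer1 were lowest in library A in all 4 groups, as for 17.8% of 12322 genes. Exonic reads of Tarbp2 were highest in A in 3 of 4 groups. Intronic reads of Ddx5 were lowest in A in all 4 groups, as for 3.43% of 10453 genes, and those of Ddx17 were highest in A in all 4, as for 6.55%. The letter A was given from the correlations of these same libraries, so these are descriptions. By exonic reads library A was also the deepest of 3 groups and the shallowest of V6.5, and its part in these differences was not tested.

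Of 48 other genes of the pathway, chosen by role, 40 were tested in Dicer exons and 43 in Dgcr8 exons, and 2 were called in each, against 1.25% and 1.26% of all genes. They were the same 2 genes, Lin28a lower and Ago1 higher. Lin28a, an RNA-binding protein that blocks maturation of let-7 precursors, had 2539.9, 2563 and 3026 exonic reads in the Dicer knockout against 12162, 21355 and 20105 in TFC (log2 difference -2.68, SE 0.28, adjusted p = 0.00771 with limma). In the Dgcr8 knockout it had 3596, 2934 and 3841 against 12625, 18142 and 19670.2 (-2.27, SE 0.28, adjusted p = 0.0248). Ago1, an Argonaute that holds the mature microRNA, had 8965, 7479.9 and 8569 against 2738, 2995 and 2889 in the Dicer pair and 7108, 7919 and 7732 against 2031, 2547 and 2281 in the Dgcr8 pair, higher in every knockout library (adjusted p = 0.0256 and 0.0263 with limma). Both calls depend on the libraries: without any 1 of B or C of either group, neither gene was called in either pair. This loss was not particular to them: those fits called 0 of all genes in Dgcr8 exons. In Dicer exons they called 7 without TFC library B and 0 in the others. With 1 library left out the Lin28a difference was -2.94 to -2.53 in the Dicer pair (adjusted p up to 0.132 with limma) and -2.46 to -2.14 in the Dgcr8 pair (up to 0.189). The Ago1 difference was 1.48 to 1.61 (up to 0.236) and 1.65 to 1.82 (up to 0.191).

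By role, the 21 cofactors of the Microprocessor had 17 tested in Dicer exons and 20 in Dgcr8 exons, with 0 called in either direction in both. Their median log2 difference was -0.13 in the Dicer pair and 0.062 in the Dgcr8 pair. Srrt, the Ars2 protein that links capped transcripts to the Microprocessor, had 5349.7, 5795 and 6153 exonic reads in the Dgcr8 knockout, above each V6.5 value of 4359.7, 3699.6 and 4002 (log2 difference 0.52, SE 0.23, adjusted p = 0.325 with limma, not called), and 7412 against 7329 in the Dicer pair. Groups lay apart for 22.5% of all genes in Dgcr8 exons. Adar, which edits paired RNA strands, had 899.9 against 1183 in the Dgcr8 pair and 1403 against 1536 in the Dicer pair, with adjusted p of 0.555 and 0.85. Of 3 export genes 2 were tested in each pair and 0 called. Of 7 genes of precursor tailing, decay and let-7 control all were tested in both, and 1 was called lower in each, Lin28a. Of 17 genes of loading and Dicer partnership 14 were tested in each, and 1 was called higher, Ago1. Ago2, the Argonaute that can cleave its target, had 4836 against 3959.5 exonic reads in the Dicer pair and 3388 against 3292 in the Dgcr8 pair (adjusted p = 0.678 and 0.967 with limma). In introns 47 of the 48 were tested in each pair: 0 were called higher and 1 lower in the Dicer knockout, Snd1, and 2 higher and 0 lower in the Dgcr8 knockout, Dis3l2 and Mov10, all 3 named after their values were seen, against 0.353% and 1.52% of all genes. With each of 6 libraries left out in turn, Snd1 was called in 2 fits, Dis3l2 in 5 and Mov10 in 1. Those fits called 0 to 37 of all genes in Dicer introns and 26 to 176 in Dgcr8 introns.

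The genes whose exonic pattern over the 12 libraries was most like that of Dicer1, each centred within its pair, were Cybb (Pearson's r 0.909), Palm2 (0.901) and Arl8b (0.900). Cybb was listed at 0 in all Dicer knockout libraries and had a mean of 450.1 reads in TFC (adjusted p = 0.0953 with limma, not called). For Dgcr8 they were Ddx3y (0.988), Sgce (0.947) and Ankrd16 (0.944). Ddx3y is Y-linked and had 218.4 reads in the Dgcr8 knockout against 1376 in V6.5 (adjusted p = 0.105 with limma, not called). It has a related gene on the X chromosome, and whether reads of that gene were counted for it was not tested. These are the highest values among 12322 genes. All genes were read in the same 12 libraries, so differences in depth, or between library A and the others, can enter every correlation. Centring within a pair leaves the difference between knockout and wild type in the pattern, so that difference helped to choose these genes.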

How the data were processed

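Exonic and intronic RNA was measured in 12 libraries of 4 embryonic stem cell lines, 3 per line, grouped by the labels. The deposited values are a signal: per the file headers, normalised reads per gene with 1 column per genotype, and their low values are sums of whole multiples of 3 steps, as for a mean of 3 libraries each divided by a size factor. TopHat2 2.0.12, DESeq and mm10 are named in the submitters' processing notes; the annotation and the counting rule are not given in the sources used here. No library has a column of its own, so whole reads per library were recovered from the 15 digits printed: 1 solution was found for 99.4% to 100% of the 18412 genes of each column and none was without one. Recovery was checked on simulated data. Of the recovered values above 0, 66.5% to 71.6% were even numbers, an excess that the simulated reads were not given. Its cause was not tested. Exonic size factors recomputed from the recovered reads differed from the recovered ones by -0.488% to 0.629%.

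Libraries were named A, B and C from the data, and intronic libraries were matched to exonic ones by the correlation of their deviations (0.366 to 0.539 for A, 0.0926 to 0.363 for B and C). Genes with several solutions were left out of the fits, which took out Ddx5 and Ddx17 in exons. Differences were tested with limma 3.58.1 in R 4.3.3, with a variance trend, on log2(value + 1) for genes with a mean of at least 10, with Benjamini-Hochberg adjustment over all genes tested and a threshold of 0.05. Values of TFC and V6.5 come from separately scaled tables, and the difference between both effects assumes only a constant scale factor. Levels per kb divide by the exon or intron bases given in each gene's identifier in the deposited tables.

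All 8 factors are named whatever their values. Of 48 other pathway genes, those called in exons are named, at most 8 per knockout, and always Lin28a, Ago2, Srrt and Adar. For Dicer1 and Dgcr8 the 3 genes most alike by Pearson correlation are named. The factors and lists were chosen with earlier results of these data known. Alternatives changed the added constant, the filter, the scaling, the variance model, the libraries in the fit and the threshold. Sequencing depth limits the precision of low values such as Prkra introns.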

Additional observations from a re-analysis of the deposited data

How the results depend on the processing

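No paired analysis was possible because the deposited columns carry no replicate numbers. The count of factors called, 0 in each comparison, became 1 (Dicer1) in Dicer exons with all 12 libraries, with a term for library A and at an adjusted p under 0.1, and was 0 to 1 with 1 library left out. In Dgcr8 exons it became 1 (Dgcr8) with all 12 libraries, with the term for A and with B and C only, and for the exonic difference between knockouts 2 with the term for A and with B and C only. The Dicer1 difference in Dicer exons stayed -1.03 with all 12 libraries and with the term for A, where it was called, and was -1.11 to -0.91 with 1 library left out. The Dgcr8 difference in Dgcr8 exons was called at -1.80 with all 12 libraries and the term for A and at -1.45 with B and C only, and was -2.12 to -1.27 with 1 library left out.

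The number of all genes called depended far more on the setting. In Dicer exons 164 became 35 without a variance trend, 21 with limma-voom, 343 with all 12 libraries, 1606 with the term for A, 61 with B and C only, and 0 to 483 with 1 library left out. In Dicer introns 41 became 72 with an added constant of 5, 1 without a trend, 64 with limma-voom, 91 with the term for A, 0 with B and C only, and 0 to 37 with 1 left out. In Dgcr8 exons 161 became 49 with limma-voom, 488 with all 12 libraries, 2158 with the term for A, 2024 with B and C only, and 0 to 464 with 1 left out. In Dgcr8 introns 163 became 272 with a constant of 5, 107 without a trend, 451 with the term for A, and 26 to 176 with 1 left out. For the difference between knockouts, 19 in exons became 335 with the term for A, 633 with B and C only and 11 to 100 with 1 left out. In introns 1 became 7 with a constant of 5, 4 without a filter, 8 with limma-voom, 9 with the term for A, 50 with B and C only and 0 to 21 with 1 left out.

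Some small differences changed sign, and the cause was not tested. With B and C only, Dgcr8 in the Dicer exonic minus intronic change was -0.25, and in Dgcr8 introns Tarbp2 was -0.65 and Ddx17 -0.049. Limma-voom gave -0.21 for Tarbp2 there. With 1 library left out, Dicer exons gave -0.0071 to 0.58 for Dgcr8, -0.45 to 0.00019 for Xpo5, -0.58 to 0.54 for Tarbp2 and -0.034 to 0.96 for Prkra, and Dicer introns -0.071 to 0.50 for Dgcr8. Dgcr8 exons gave -0.21 to 0.018 for Xpo5 and -0.37 to 0.045 for Prkra, and Dgcr8 introns -0.33 to 0.68 for Tarbp2, -0.045 to 0.61 for Ddx5 and -0.14 to 0.35 for Ddx17. The exonic minus intronic change ran from -0.55 to 0.63 for Dgcr8 in the Dicer pair and from -0.65 to 0.11 for Dicer1 in the Dgcr8 pair. Limma-voom was not run on the exonic minus intronic change, whose values are not counts. Exchanging intronic libraries B and C, and the combinations of whole reads for Ddx5 and Ddx17, were added after seeing the data.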
